A study of Mus musculus with 12 samples.

Results

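The colon of mice given dextran sodium sulfate (DSS) to induce colitis was compared with that of untreated mice across all genes. The comparison took the 6 RNA-Seq libraries of the model group (n = 3) and the control group (n = 3) out of the 12 in the series, and 16904 of the 54532 genes in the count table had enough reads to be tested. All mice were wild-type male C57BL/6J and entered the study at 5 weeks of age. The control group was given no treatment, and the model group received DSS, a sulfated polymer that injures the lining of the colon. The remaining 6 libraries came from mice given DSS together with Rhy, the alkaloid under study, or with the glucocorticoid dexamethasone (DXM). They entered the fit only to help estimate the spread between libraries. The excised colon was washed and sections of it were taken for RNA, but the labels do not give the position of the sections along the colon. Neither do the labels say that each library came from a separate mouse, so the p-values measure the spread between these libraries only.

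The lining of the colon is a single layer of epithelial cells that is renewed from stem cells at the base of the crypts. Dividing cells fill the lower crypt, and their descendants stop dividing, build a brush border of microvilli and become absorptive colonocytes or mucus-secreting goblet cells as they move towards the lumen. DSS breaks this layer, bacteria reach the tissue beneath, immune cells are drawn in, and crypt cells divide to close the wounds. The Reg3 lectins are antibacterial proteins that the epithelium secretes upon contact with microbes or the cytokine IL-22.

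Total counts were 15662589 to 16601454 in the control libraries and 15544386 to 16948352 in the model libraries. The markers of colon epithelium were abundant in every library. Epcam, an adhesion protein of epithelial cells, was at 2100, 2207 and 2152 CPM (the count scaled to the size of the library, on edgeR's TMM scale) in control 1 to 3 and at 1553, 1560 and 1673 CPM in model 1 to 3. Hoxb13, a gene of the distal colon and rectum, was at 155, 72.0 and 0.165 CPM in the control libraries and at 226, 205 and 1.49 CPM in the model libraries. Control 3 and model 3 therefore stood apart from the other libraries of their groups, and lists are also given within control 3 and model 3 and within the other 4 libraries. Model 1 and model 2 were almost alike, with a common dispersion of 0.00201 where the next most alike pair of the series had 0.06. Their counts varied 1.91 times as much as Poisson counts over 15996 genes, which cannot tell separate mice from repeated libraries of the same RNA. They were kept apart in the main fit, so p-values of single genes and counts without overlap treat them as separate replicates. Counts of genes are also given with both summed into 1 library. The share of counts on mitochondrially encoded genes was 6.33 to 21.0% in the control group and 11.1 to 13.98% in the model group, and its part in the results was not tested.

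**Figure D1:**
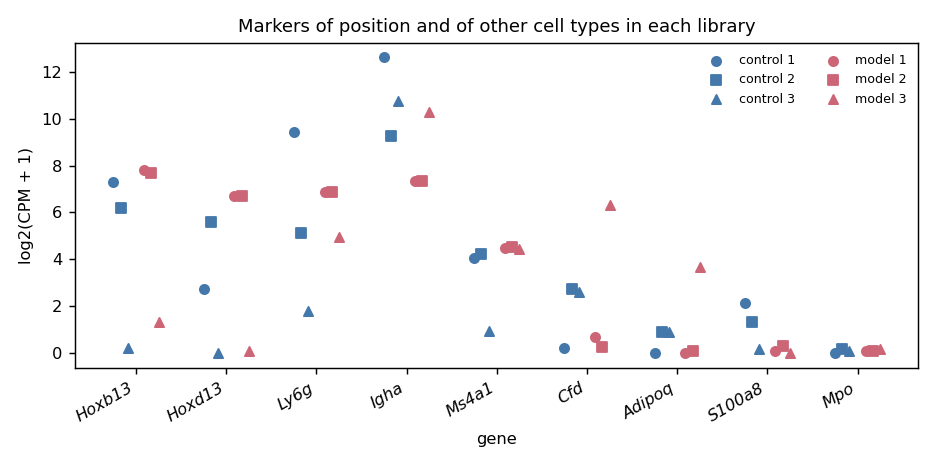
Level of 9 marker genes, as log2(CPM + 1), in each of the 6 libraries, with the control group in blue and the model group in red, and symbols for the replicate number. Hoxb13 and Hoxd13 were near 0 in control 3 and model 3, the fat cell genes Cfd and Adipoq were highest in model 3, and the neutrophil genes S100a8 and Mpo were low in all 6 libraries.

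At an unadjusted p under 0.05, most genes of DNA replication and Reg3b and Reg3g were higher in the model group. Genes of the brush border cytoskeleton, the circadian clock and the immediate early response were among those lower. No single gene was called after adjustment in the test used here. The quasi-likelihood test of edgeR left 0 of the 16904 genes under a Benjamini-Hochberg adjusted p of 0.05, with 0.459 as the lowest value. An unadjusted p under 0.05 was reached by 1626 genes (9.62%), with 863 (5.11% of all genes tested) at a higher level in the model group and 763 (4.51%) at a lower level. With model 1 and model 2 summed, 866 genes remained under that limit, 509 higher (2.93%) and 357 lower (2.06%) of 17346 tested. The split depended on the scaling, since DESeq2's size factors in edgeR gave 666 higher and 980 lower. Leaving out control 3 gave 2811 genes. DESeq2 made adjusted calls where edgeR did not, with 46 genes in a fit of all 12 libraries, 167 in a fit of the 6 libraries, and 4 in a fit of the 6 libraries with model 1 and model 2 summed. On simulated counts with 200 genes changed 4-fold, edgeR recovered 110 and made 5 false calls. DESeq2 recovered 147 with 41 false calls in a fit of all 12 libraries, and 148 with 61 in a fit of the 6. Genes called in DESeq2 alone are therefore uncertain, and edgeR can miss changes of that size. The simulation held no near-identical libraries and no fit with model 1 and model 2 summed. In the fit with both summed, Reg3b, Reg3g and the pseudogene Rps26-ps1 rose and Clec2e fell.

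The antibacterial lectins Reg3b and Reg3g differed most in size among the epithelial genes. Reg3b (ENSMUSG00000071356, GRCm38 chr6:78370657-78373466, plus strand) was at 126, 14.1 and 77.2 CPM in control 1 to 3 and at 4737, 4829 and 1116 CPM in model 1 to 3. Its neighbour Reg3g (ENSMUSG00000030017, chr6:78466269-78468872, minus strand) was at 30.2, 7.58 and 21.6 CPM in the control libraries and at 1298, 1348 and 256 CPM in the model libraries. For both genes every model library lay above every control library, and model 3 was the lowest of its group. The log2 fold change of Reg3b was 5.62 ± 1.94 (SE) in edgeR with an unadjusted p of 0.0138, and that of Reg3g was 5.61 ± 1.65 with an unadjusted p of 0.00541. In DESeq2 on the 6 libraries with model 1 and model 2 summed, the log2 fold changes were 5.30 ± 0.81 (adjusted p = 4.58e-07) and 5.27 ± 0.72 (adjusted p = 2.76e-09). Reads of the related Reg3 genes can be split between them, so the levels of single members are uncertain. The third member, Reg3a, was at most 0.165 CPM in the control group and at 1.32, 1.40 and 0.536 CPM in the model group (log2 fold change 3.57 ± 1.64, unadjusted p = 0.0501).

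The start regions of Reg3b and Reg3g are shown because both genes were higher together. Each sequence holds the 250 bases before the RefSeq start of the gene on GRCm38.p6, read 5′ to 3′ on the strand of the gene, at chr6:78370635-78370884 for Reg3b and chr6:78468875-78469124 for Reg3g. The coordinates given above for Reg3b begin inside its window, so most of that window lies within the gene as annotated with the counts. The capitals mark TTTGAA on the reverse strand. These letters are part of the CHR element of mitotic genes, and they were searched for on both strands.
Reg3b: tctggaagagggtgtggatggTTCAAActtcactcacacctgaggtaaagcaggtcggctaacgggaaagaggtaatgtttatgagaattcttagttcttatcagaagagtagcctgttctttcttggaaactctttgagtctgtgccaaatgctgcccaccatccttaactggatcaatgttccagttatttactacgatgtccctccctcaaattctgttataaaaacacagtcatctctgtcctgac
Reg3g: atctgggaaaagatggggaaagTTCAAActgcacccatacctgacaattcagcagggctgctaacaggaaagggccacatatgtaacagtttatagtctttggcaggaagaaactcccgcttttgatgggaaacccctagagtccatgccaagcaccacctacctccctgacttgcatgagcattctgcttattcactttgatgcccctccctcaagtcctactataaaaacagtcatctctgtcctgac
The 2 sequences were identical at 175 of 254 aligned positions (68.9%), and their longest shared run was the last 20 bases before the start. The motif lay 229 to 224 bases before the start in Reg3b and 228 to 223 bases before it in Reg3g. Of all genes tested that had a promoter in the RefSeq table, 13.2% held TTTGAA in such a window, and the match is a description only.

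Clec2e, a C-type lectin-like gene (ENSMUSG00000030155, chr6:129091998-129100913, minus strand), was at 209, 266 and 156 CPM in the control libraries and at 62.6, 65.7 and 61.7 CPM in the model libraries. The groups did not overlap, and the model libraries were close to each other. DESeq2 with model 1 and model 2 summed gave a log2 fold change of -1.78 ± 0.36 (adjusted p = 0.00393), while edgeR gave -1.73 ± 0.89 with an unadjusted p of 0.0753. Rps26-ps1, a processed copy of a ribosomal protein gene that was singled out after its values were seen, was at 3.97, 7.30 and 3.18 CPM in the control group and at 114, 100 and 148 CPM in the model group. Its log2 fold change was 4.65 ± 0.89 (edgeR adjusted p = 0.459, DESeq2 summed adjusted p = 4.57e-20). Near-identical copies of this gene exist, so its counts are uncertain.

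**Figure D2:**
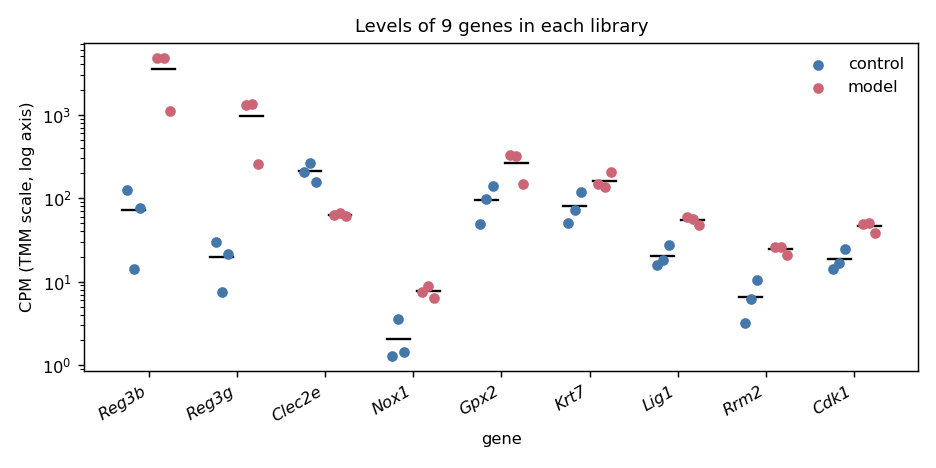
CPM on a log axis of 9 genes in the 3 control libraries (blue) and the 3 model libraries (red), each point a library and each bar the group mean. Reg3b and Reg3g were the most separated, Clec2e was lower in every model library, and Lig1, Rrm2 and Cdk1 were higher in every model library.

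Among protein-coding genes whose groups did not overlap, the 12 with the smallest p-values on the higher side had roles that ranged from DNA synthesis to transcription. The groups did not overlap for 1763 genes on the higher side (10.4% of all genes tested) and for 1117 on the lower side (6.61%). Tubg1, the gamma-tubulin that nucleates microtubules, was at 15.8, 13.8 and 15.7 CPM in the control group and at 26.4, 25.1 and 28.5 CPM in the model group, so every model library was well above the controls (log2 fold change 0.82 ± 0.15, unadjusted p = 0.000167). Vars, the valyl-tRNA synthetase, was at 36.6, 37.5 and 41.4 CPM and at 73.2, 67.2 and 69.3 CPM (log2 fold change 0.86 ± 0.17). Lrr1, an adaptor in the removal of the replication helicase from DNA, was at 0.374, 0.348 and 0.988 CPM and at 3.69, 4.79 and 2.38 CPM, the largest of these differences (log2 fold change 2.62 ± 0.58). The other genes among the first 12 were Phb, a mitochondrial scaffold protein, Lig1, Tk1 and Prim1 of DNA synthesis, Chtf18, a loader of the replication clamp, Tuba1b, an alpha-tubulin, Stmn1, a regulator of microtubules, Polr2l, a subunit of the RNA polymerases, and Gm6793. Their log2 fold changes were 0.75 to 1.42.

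On the lower side, the first 12 genes ranged from a metabolic enzyme to regulators of actin. Pck1, which catalyses the committed step of gluconeogenesis and is active in absorptive cells, was at 142, 174 and 186 CPM in the control group and at 66.0, 68.7 and 89.8 CPM in the model group. All model libraries were below the lowest control library (log2 fold change -1.16 ± 0.21, unadjusted p = 0.000138). Irs2, an adaptor of the insulin receptor, was at 49.0, 98.5 and 56.0 CPM and at 20.02, 21.8 and 26.7 CPM (log2 fold change -1.57 ± 0.33). Daam1, a formin that builds actin filaments, was at 103, 136 and 94.9 CPM and at 56.4, 57.5 and 60.8 CPM (log2 fold change -0.93 ± 0.19). The others were Dennd1b, Lhfpl2, Smpdl3a, Rnd3, a small GTPase without GTP hydrolysis, Rab11fip4, an effector of recycling endosomes, Tmem127, Igsf9, Erlin1 and Ccdc120. Their log2 fold changes were -0.73 to -1.44, and none overlapped between the groups, by the rule that chose them.

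The DNA replication list had the largest share of genes at an unadjusted p under 0.05 of all gene lists examined. The lists were written with earlier results of these data known, so this ranking is a description only. Of 45 genes, 44 had a positive log2 fold change, the median was 1.34, and 40 had an unadjusted p under 0.05 on the higher side with 0 on the lower side. Over all genes tested, 50.7% were positive with a median of 0.01, and 5.11% were higher at that p. For 42 of the 45 genes the 3 model libraries lay above the 3 control libraries, against 10.4% of all genes tested. At that p the count was 37 with model 1 and model 2 summed and 32 to 42 with any library left out. The median difference was 1.64 within control 1 and 2 and model 1 and 2, and 0.63 between model 3 and control 3, where 44 of the 45 genes were higher in model 3.

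All subunits of the replicative helicase, the MCM2-7 ring that is loaded at origins and unwinds DNA, were higher in every model library. They are described as a complex chosen after their values were seen. Mcm5 was at 8.09, 12.5 and 27.4 CPM in the control group and at 56.8, 53.7 and 51.9 CPM in the model group. The model libraries were close to each other, while control 3 was the highest of the controls (log2 fold change 1.75 ± 0.50, unadjusted p = 0.00438). Mcm6 was at 10.4, 17.7 and 49.3 CPM and at 77.3, 83.8 and 59.7 CPM (log2 fold change 1.51 ± 0.51). Mcm2, Mcm3, Mcm4 and Mcm7 had log2 fold changes of 1.44, 1.46, 1.41 and 1.03, each with an unadjusted p under 0.05. Without control 3 the log2 fold changes of Mcm6 and Mcm2 were 2.35 and 2.21. Mcm10, which joins the helicase as it starts, was at 5.24, 6.61 and 8.29 CPM and at 16.2, 19.1 and 12.9 CPM (log2 fold change 1.25 ± 0.31). Cdc45, the helicase cofactor, was at 1.498, 3.13 and 5.05 CPM and at 11.3, 11.5 and 11.1 CPM (log2 fold change 1.80 ± 0.49).

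Genes that make and join the new strands were higher as well. Prim1, the catalytic subunit of the primase, was at 7.11, 8.07 and 8.56 CPM in the control group and at 22.5, 22.1 and 16.9 CPM in the model group (log2 fold change 1.37 ± 0.33, unadjusted p = 0.00126). Lig1, the ligase that seals Okazaki fragments, was at 15.7, 18.4 and 27.4 CPM and at 59.6, 56.5 and 48.3 CPM (log2 fold change 1.42 ± 0.32, unadjusted p = 0.00095). In both genes the groups stood clear of each other. Pcna, the sliding clamp, was at 26.7, 44.6 and 64.2 CPM and at 94.0, 96.8 and 95.9 CPM (log2 fold change 1.08 ± 0.38). Rfc3, a subunit of the clamp loader, had a smaller difference, from 10.5 to 14.4 CPM in the control group to 18.02 to 21.4 CPM in the model group (log2 fold change 0.62 ± 0.32, unadjusted p = 0.0821).

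The supply of deoxynucleotides followed the same course. Rrm2, the regulated subunit of ribonucleotide reductase, was at 3.22, 6.12 and 10.4 CPM in the control group and at 26.1, 26.1 and 20.9 CPM in the model group, a log2 fold change of 1.88 ± 0.52. Tk1, the S-phase thymidine kinase, was at 15.3, 14.7 and 23.4 CPM and at 47.6, 46.8 and 31.7 CPM (log2 fold change 1.24 ± 0.29). Model 3 was the lowest of its group in both genes and still above every control library. Tyms, which makes thymidylate, was at 10.5, 17.3 and 22.2 CPM and at 40.9, 41.8 and 28.9 CPM. The transcription factors of this programme, E2f1, E2f2 and E2f8, had log2 fold changes of up to 1.70 without overlap between the groups. Of the genes in these 3 paragraphs, Cdc45, Pcna, Rfc3, Rrm2, Tyms and the E2f genes were named after their values were seen.

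The mitosis list was shifted less evenly. Of 52 genes, 51 were positive with a median of 0.88, and 26 were higher without overlap, against 10.4% of all genes tested. An unadjusted p under 0.05 was reached by 15 on the higher side and 0 on the lower side, against 5.11% and 4.51% of all genes tested. The count was 4 with model 1 and model 2 summed or with either left out, 5 without control 1 or control 2, and 30 without control 3. Cdk1, the kinase that drives entry into mitosis, was at 14, 16.8 and 24.9 CPM in the control group and at 49.1, 50.5 and 38.1 CPM in the model group. Its groups did not overlap, and model 3 and control 3 were the closest of the libraries (log2 fold change 1.31 ± 0.40, unadjusted p = 0.00729). Ncaph, a condensin subunit that compacts chromosomes, was at 4.64, 5.15 and 9.77 CPM and at 21.3, 18.9 and 14.8 CPM (log2 fold change 1.49 ± 0.47). Cdca8 and Incenp, partners of the Aurora B kinase in the chromosomal passenger complex, had log2 fold changes of 1.03 and 0.91. Mki67, a common marker of dividing cells that was named after its values were seen, was at 157, 58.3 and 87.4 CPM and at 131, 141 and 86.9 CPM, so control 1 was above every model library. The median difference of the list was 1.31 within control 1 and 2 and model 1 and 2 and 0.03 between model 3 and control 3, where 30 of 52 genes were higher in model 3.

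**Figure D3:**
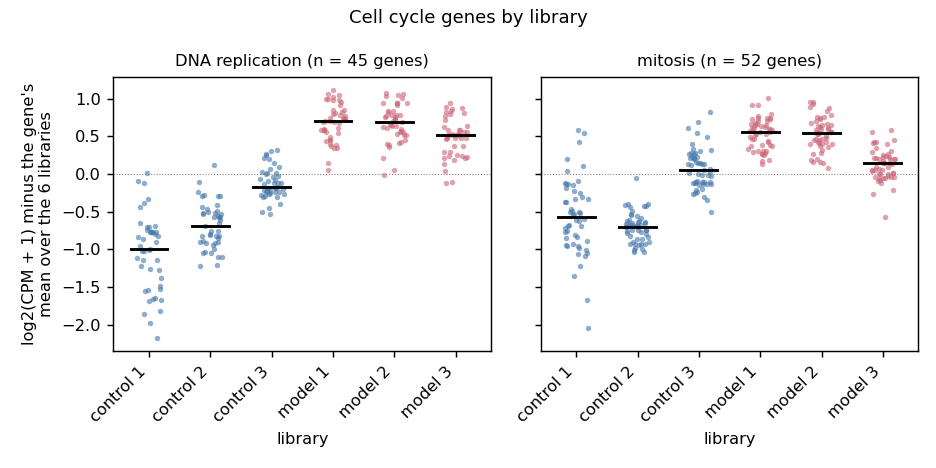
Members of the DNA replication list (45 genes) and of the mitosis list (52 genes) by library, as log2(CPM + 1) minus the mean of the gene over the 6 libraries, with a bar at the median of each library. The replication genes of all model libraries had medians above those of the control libraries, whereas the mitosis genes of control 3 and model 3 were close to each other.

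The start regions of Mcm5, Mcm6 and Cdk1 are shown as examples of the cell cycle genes, at chr8:75109259-75109508 (plus strand), chr1:128359706-128359955 (minus strand) and chr10:69352913-69353162 (minus strand) of RefSeq GRCm38.p6. The capitals mark TTTGGCGC, the letters to which E2F factors bind, CCAAT, the letters of NF-Y, and TTTGAA, part of the CHR element of mitotic genes, on either strand.
Mcm5: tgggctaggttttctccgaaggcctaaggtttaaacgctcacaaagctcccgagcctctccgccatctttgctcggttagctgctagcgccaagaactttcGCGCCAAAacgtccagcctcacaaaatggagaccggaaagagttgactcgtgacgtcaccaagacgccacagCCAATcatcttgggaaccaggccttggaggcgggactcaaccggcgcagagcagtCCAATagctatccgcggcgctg
Mcm6: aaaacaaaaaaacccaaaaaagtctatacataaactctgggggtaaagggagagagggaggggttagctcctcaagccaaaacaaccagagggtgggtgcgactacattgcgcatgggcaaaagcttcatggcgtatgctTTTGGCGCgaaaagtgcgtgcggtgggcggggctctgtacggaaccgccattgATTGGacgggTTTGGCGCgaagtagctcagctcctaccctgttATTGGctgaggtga
Cdk1: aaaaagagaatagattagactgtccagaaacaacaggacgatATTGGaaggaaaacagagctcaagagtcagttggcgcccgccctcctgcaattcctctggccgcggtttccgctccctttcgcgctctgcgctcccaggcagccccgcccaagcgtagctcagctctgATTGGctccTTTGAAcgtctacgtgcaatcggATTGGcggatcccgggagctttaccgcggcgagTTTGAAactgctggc
TTTGGCGC lay 149 to 142 bases before the start in Mcm5 and at 110 to 103 and 47 to 40 bases in Mcm6, and Cdk1 held TTTGAA at 71 to 66 and 15 to 10 bases. In windows of this length, CCAAT was found in 32 of the 44 mitosis genes with a RefSeq promoter (72.7%), in 22 of 36 replication genes (61.1%), in 11 of 15 circadian clock genes (73.3%) and in 4728 of 11948 genes tested (39.6%), so its share was not particular to the cell cycle lists. TTTGAA was found in 16 of the 44 mitosis genes (36.4%) against 13.2% of genes tested, and TTTGGCGC in 3 of the 36 replication genes (8.33%) against 0.854%. These shares describe the letters only.

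Genes of the brush border, the dense row of microvilli through which colonocytes absorb, were lower in the model group. In the microvillus cytoskeleton list, 15 of 15 genes had a negative log2 fold change with a median of -0.85. Of these, 12 were lower without overlap between the groups, against 6.61% of all genes tested. On the lower side 10 had an unadjusted p under 0.05, against 4.51% of all genes tested. The count was 6 with model 1 and model 2 summed, and 6 without control 2 or model 2. Myo1a, the myosin that ties the actin core to the microvillar membrane, was at 884, 835 and 595 CPM in the control group and at 343, 346 and 426 CPM in the model group (log2 fold change -1.05 ± 0.27, unadjusted p = 0.00205). Myo7b, the motor of the links between microvillar tips, was at 413, 511 and 319 CPM and at 143, 149 and 190 CPM (log2 fold change -1.37 ± 0.35). Control 3 and model 3 were the nearest to each other in both genes. Anks4b, a scaffold of the same tip links, and Eps8, which bundles and caps actin, had log2 fold changes of -1.03 and -0.85. The median of the list was -0.98 within control 1 and 2 and model 1 and 2, -0.23 between model 3 and control 3, and -0.55 without control 2.

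The list of enzymes on the surface of the brush border differed in the same direction, with 14 of 15 tested genes negative and a median of -1.10. At an unadjusted p under 0.05, 4 were lower and 0 higher, against 4.51% and 5.11% of all genes tested. The lower count was 2 with model 1 and model 2 summed or without control 3, model 1 or model 2. The median was -0.62 without control 2. Mep1b, a subunit of the metalloprotease meprin, was at 343, 204 and 181 CPM in the control group and at 82.4, 84.4 and 114 CPM in the model group (log2 fold change -1.38 ± 0.42). Its partner Mep1a was at 298, 550 and 494 CPM and at 167, 163 and 296 CPM, so model 3 was just below control 1 (log2 fold change -1.10 ± 0.49, unadjusted p = 0.0428). Cdhr2, which is not an enzyme but a protocadherin that forms the tip links, was at 927, 1233 and 856 CPM and at 439, 435 and 499 CPM (log2 fold change -1.14 ± 0.35). Sis, the sucrase-isomaltase of the small intestine, was listed at 0, 2.99 and 14.5 CPM and at 0.0551, 0 and 0.298 CPM, so its fold change rested on control 2 and 3.

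Genes that carry nutrients, ions and water across the epithelium were lower in part. In the nutrient and bile transport list, 21 of 24 genes were negative with a median of -0.91. At an unadjusted p under 0.05, 3 were lower, against 4.51% of all genes tested. The count was 2 without control 2, control 3, model 1 or model 2 and with both of the last summed. Slc13a2, a transporter of citrate and dicarboxylates, was at 695, 380 and 275 CPM in the control group and at 172, 179 and 154 CPM in the model group (log2 fold change -1.42 ± 0.47, unadjusted p = 0.0105). Apob, the protein of intestinal lipoproteins, was at 17.1, 275 and 33.4 CPM and at 5.29, 5.95 and 8.99 CPM (log2 fold change -4.01 ± 1.38), with control 2 far above all other libraries and a log2 fold change of -1.91 without it. Slc7a9, a light chain of the cystine and basic amino acid transporter, and Slc22a5, the carnitine transporter, overlapped between the groups. Among 30 genes of colonocyte ion and water transport, 5 were lower and 0 higher at that p, against 4.51% and 5.11% of all genes tested. The median was -0.32, and 2 were lower with the replicate number as a block. The count on the lower side was 8 without control 3, 3 without control 1, 2 without model 3 and 1 without model 1 or model 2 or with both summed. The median of this list was 0.04 within control 1 and 2 and model 1 and 2. Slc9a2, a sodium-proton exchanger, was at 445, 647 and 452 CPM and at 206, 216 and 284 CPM (log2 fold change -1.13 ± 0.42, unadjusted p = 0.0192). Clca4a, a regulator of chloride conductance, was at 439, 1643 and 416 CPM and at 319, 340 and 249 CPM (log2 fold change -1.46 ± 0.59, or -0.49 without control 2). Slc26a3, the chloride-bicarbonate exchanger of the colon, and Guca2a, which encodes guanylin, had log2 fold changes of -1.07 and -1.05, or -0.64 and -0.67 without control 1, and overlapped between the groups.

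Tight junction genes, whose proteins seal the gaps between epithelial cells, had negative fold changes for the most part. Of 24 genes, 20 were negative with a median of -0.32. At an unadjusted p under 0.05, 5 were lower and 1 was higher, against 4.51% and 5.11% of all genes tested. With model 1 and model 2 summed 3 were lower and 0 higher, against 2.06% and 2.93% of all genes tested in that fit. Without control 2 the count of lower genes was 2, and it was 3 without model 1, model 2 or model 3. Tjp1, which encodes the scaffold ZO-1, was at 114, 186 and 122 CPM in the control group and at 93.6, 93.6 and 84.8 CPM in the model group (log2 fold change -0.63 ± 0.21, unadjusted p = 0.0112, or -0.37 without control 2). Ocln, which encodes occludin, was at 67.2, 106 and 106 CPM and at 66.0, 65.5 and 64.6 CPM (log2 fold change -0.51 ± 0.22, unadjusted p = 0.0409). Both genes were lower in every model library, Ocln by a narrow margin to control 1. Cldn4, which encodes claudin 4, was at 66.5, 183 and 114 CPM and at 96.3, 88.6 and 112 CPM and overlapped between the groups (log2 fold change -0.29 ± 0.50, unadjusted p = 0.567). Cldn23 was at 132, 95.3 and 88.3 CPM and at 54.6, 49.2 and 55.2 CPM (log2 fold change -0.99 ± 0.30). Cldn3 had a log2 fold change of -0.83 with overlap, or -0.47 without control 1. Cldn8, a claudin that limits the passage of sodium, went the other way, at 10.8, 7.30 and 19.5 CPM and at 43.8, 44.5 and 20.02 CPM (log2 fold change 1.52 ± 0.56), although model 3 was barely above control 3.

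The general markers of colon epithelium had a median log2 fold change of -0.34, with 9 of 10 negative. At an unadjusted p under 0.05, 2 were lower, against 4.51% of all genes tested. The count was 0 with model 1 and model 2 summed or without control 1, model 1 or model 2, 1 without control 2 or with the replicate number as a block, and 3 without control 3. Hnf4a, a transcription factor of enterocyte identity, was at 1006, 917 and 822 CPM in the control group and at 594, 580 and 704 CPM in the model group (log2 fold change -0.55 ± 0.21, unadjusted p = 0.023). Krt20, a keratin of mature surface cells, was at 2271, 2687 and 1409 CPM and at 946, 946 and 1426 CPM, so model 3 reached control 3 (log2 fold change -0.94 ± 0.40). Cdx1, an intestinal transcription factor of the crypt, was higher, at 318, 398 and 440 CPM and at 509, 487 and 609 CPM, with an unadjusted p of 0.108. In whole tissue, fewer cells of a type and less RNA per cell cannot be told apart.

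Stem cell and Wnt target genes had a median of 0.25, with 13 of 16 positive. At an unadjusted p under 0.05, 1 was higher and 1 lower, against 5.11% and 4.51% of all genes tested, and 5 were higher without control 3. Cdca7, a gene of proliferating cells, was at 14.6, 24.6 and 43.1 CPM in the control group and at 45.5, 44.2 and 60.2 CPM in the model group (log2 fold change 0.86 ± 0.34, unadjusted p = 0.0261, or 0.56 without control 1 and 1.32 without control 3). Prom1, which encodes prominin 1, was at 415, 849 and 450 CPM and at 205, 202 and 303 CPM (log2 fold change -1.27 ± 0.50). Lrig1 and Ephb2 overlapped between the groups. The median was 0.74 without control 3, -0.02 without control 1, 0.16 without control 2, 0.11 without model 3 and -0.34 between model 3 and control 3. Among genes described in repairing epithelium, 1 of 14 was higher at an unadjusted p under 0.05, against 5.11% of all genes tested. It was Krt7, a keratin of simple epithelia, at 50.8, 72.7 and 120 CPM and at 147, 136 and 204 CPM (log2 fold change 1.00 ± 0.28, unadjusted p = 0.0044). Hbegf, Sprr1a and Anxa3 of the same list overlapped between the groups.

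Goblet cell genes varied widely among libraries of the same group. Muc2, the main gel-forming mucin, was at 1591, 351 and 6710 CPM in the control group and at 1012, 1037 and 4528 CPM in the model group, with control 3 and model 3 the highest. The log2 fold change of Sytl2 was -0.88 ± 0.40, or -0.37 without control 1. It was the 1 gene of 20 lower at an unadjusted p under 0.05, a share near the 4.51% of all genes tested. The count was 0 with the replicate number as a block, with model 1 and model 2 summed, or without control 1, control 3, model 1 or model 2, and 2 without model 3. The median was -0.43, or -0.89 without control 2 and 0.19 without control 3. Creb3l1 and B3gnt6 overlapped between the groups, and Spink4 was lower in every model library with an unadjusted p of 0.294. In the epithelial defence list the median was -0.07, or 0.66 without control 1. At an unadjusted p under 0.05, 3 of 15 genes were higher, against 5.11% of all genes tested. Besides Reg3b and Reg3g, the third was Nox1, the superoxide-making oxidase of the colon, at 1.27, 3.55 and 1.43 CPM and at 7.61, 8.98 and 6.31 CPM (log2 fold change 1.87 ± 0.78, unadjusted p = 0.0343).

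Genes of acute inflammation were low in both groups. Of 32 genes in that list, 20 had enough reads to be tested, and 14 were negative with a median of -0.41 (-0.18 without control 1). A share near the 5.11% of all genes tested was higher at an unadjusted p under 0.05, namely 1 gene, or 0 without control 3. It was Mmp3, a stromal metalloprotease, at 0.824, 1.11 and 0.275 CPM in the control group and at 3.31, 2.85 and 2.68 CPM in the model group (log2 fold change 2.01 ± 0.69, unadjusted p = 0.0137). Il1b, the interleukin 1 beta gene, was at 2.32, 2.57 and 3.79 CPM and at 1.38, 2.31 and 0.298 CPM, lower in every model library though level in control 1 and model 2 (log2 fold change -1.12 ± 0.70, unadjusted p = 0.136). Tnf overlapped between the groups (log2 fold change -0.48 ± 0.70), and so did the chemokine gene Cxcl1, at 0.2196 to 0.487 CPM in the control group and 0.121 to 0.772 CPM in the model group. Il6 was at most 0.139 CPM in any of the 6 libraries and was not tested. Il22, the cytokine of barrier defence, was at 0.150, 0.209 and 0 CPM in the control libraries and at 0 in all model libraries. Osm, which encodes oncostatin M, overlapped between the groups.

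Neutrophil markers were near 0 in the model libraries apart from Ly6g. S100a8, the alarmin subunit that neutrophils carry in abundance, was at 3.44, 1.53 and 0.110 CPM in the control group and at 0.0551, 0.243 and 0 CPM in the model group (log2 fold change -3.99 ± 1.44, unadjusted p = 0.0173), and S100a9 overlapped. Mpo, which encodes myeloperoxidase, was at most 0.139 CPM in the control group and at most 0.119 CPM in the model group and was not tested. Of 10 markers, 4 had enough reads to be tested, and none was higher at an unadjusted p under 0.05. Ly6g was at 682, 33.8 and 2.42 CPM and at 116, 117 and 29.96 CPM, which made up most of the summed level of the list (3.40 to 688 CPM in the control group, 30.6 to 119 CPM in the model group). In control 1, where Ly6g was at 682 CPM, S100a8 was at 3.44 CPM. The sum therefore followed Ly6g and is not read as a measure of neutrophils. Csf3r, the receptor for the granulocyte growth factor, was at 2.02 CPM or less in every library.

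Macrophage markers leaned lower, with 17 of 18 negative and a median of -0.73. At an unadjusted p under 0.05, 5 were lower, against 4.51% of all genes tested. With model 1 and model 2 summed 2 were lower. Without control 1 the median was -0.25 and 1 gene was lower, and without model 1, model 2 or model 3 the counts were 1, 2 and 3. Cd163, a scavenger receptor of resident macrophages, was at 2.32, 0.974 and 4.50 CPM in the control group and at 0.331, 0.485 and 0.655 CPM in the model group (log2 fold change -2.40 ± 0.71, unadjusted p = 0.00543). Csf1r, the receptor on which macrophages depend, was at 32.1, 14.6 and 19.9 CPM and at 10.3, 9.22 and 10.6 CPM (log2 fold change -1.15 ± 0.50). Itgax and Cx3cr1 had log2 fold changes of -1.49 and -1.65, or -0.71 and -0.87 without control 1. The summed level of the 18 markers was 456 to 898 CPM in the control group and 469 to 569 CPM in the model group, so the sum overlapped between the groups, while 4 of the 18 markers were lower without overlap.

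The summed level of plasma cell genes was the lowest of the 6 libraries in model 1 and model 2, and B cell genes were nearly missing from control 3. The median log2 CPM of the plasma cell genes was 6.03, 6.36 and 3.83 in control 1 to 3. In model 1 to 3 this median was 5.24, 5.35 and 6.13, so control 3 had the lowest. Igha, the heavy chain of the IgA that plasma cells of the gut secrete, was at 6265, 617 and 1741 CPM in the control group and at 162, 162 and 1232 CPM in the model group (log2 fold change -2.47 ± 1.10, unadjusted p = 0.0449), or -1.18 without control 1 and -4.18 without model 3. Igkc, the light chain, showed the same order of libraries (unadjusted p = 0.0522). Prdm1, the transcription factor of plasma cell fate, was at 10.6, 24.3 and 10.9 CPM and at 7.72, 5.28 and 5.72 CPM (log2 fold change -1.29 ± 0.37, unadjusted p = 0.00469, or -0.78 without control 2). Tnfrsf17, the survival receptor BCMA, had a log2 fold change of -2.76 ± 0.92, or -1.61 without control 1. Of 11 plasma cell genes 9 were negative with a median of -1.42. At an unadjusted p under 0.05, 3 were lower, against 4.51% of all genes tested. The count was 1 without control 1, 2 without model 1 or model 2 or with both summed, and 5 without control 2, control 3 or model 3. The median was -0.82 without control 1 and -0.30 between model 3 and control 3. Ms4a1, which encodes CD20 of B cells, was at 15.3, 17.9 and 0.933 CPM and at 21.4, 21.7 and 20.7 CPM, and the summed level of the 14 B cell markers was 356, 262 and 17.8 CPM in control 1 to 3 and 270, 272 and 204 CPM in model 1 to 3. Of the 14 markers 3, Cd79b, Cxcr5 and Ms4a1, were higher without overlap, against 10.4% of all genes tested. In these genes control 1 and 2 were only a little below the model libraries. None of the 14 markers had an unadjusted p under 0.05 in edgeR. The same was so for the 20 T cell markers, with a median of -0.16 (0.22 without control 1), among them Ccl5, Itgae, Cd3e and Foxp3, all with overlapping groups.

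Of 32 interferon response genes 2 were lower at an unadjusted p under 0.05, a share near that of all genes, and 0 were with the replicate number as a block or with model 1 and model 2 summed. The log2 fold change was negative in 28 with a median of -0.51, or -0.14 without control 2. Ifit3, an antiviral gene, was at 13.6, 72.1 and 18.7 CPM in the control group and at 13.7, 13.9 and 12.8 CPM in the model group, so control 2 set the difference. Gbp3, a guanylate-binding protein, was at 52.9, 37.1 and 19.5 CPM and at 17.4, 20.1 and 22.8 CPM (log2 fold change -0.86 ± 0.37, or -0.50 without control 1). Gbp5 and Xaf1 also overlapped. Without control 3, 10 of these genes were lower at that limit, and without control 2, model 1 or model 2, 0 were, and the median between model 3 and control 3 was -0.01. Among 10 genes of antigen presentation by MHC class II, Ctss, a lysosomal protease, was lower (308, 448 and 294 CPM and 241, 238 and 224 CPM), though not with model 1 and model 2 summed or without control 2, model 1 or model 2. Without control 1, 3 of the 10 were higher, and H2-Aa, H2-Eb1 and H2-DMb1 were far higher in control 1 than in any other library.

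In the supporting tissues few genes reached the limit. Of 45 extracellular matrix genes, 39 were negative with a median of -0.31. At an unadjusted p under 0.05, 1 was lower, against 4.51% of all genes tested. The count was 0 with model 1 and model 2 summed or without control 3, model 1 or model 2, 2 without model 3 or with the replicate number as a block, and 4 without control 2, and the median was -0.20 without control 1. The gene under the limit was Lox, which crosslinks collagen, at 3.37, 2.43 and 4.78 CPM in the control group and at 1.27, 1.33 and 2.32 CPM in the model group (log2 fold change -1.10 ± 0.47). Lama2, Nid2 and Col6a1 overlapped between the groups. Fibroblast markers (median -0.31), smooth muscle markers (median 0.04) and endothelial markers (median -0.38) held 0 genes under that limit, with 9, 19 and 12 genes tested in edgeR. Without control 1 the smooth muscle and endothelial medians were 0.34 and -0.09, and without model 3 the fibroblast median was -0.48. Des, the intermediate filament of muscle, was at 1659, 677 and 616 CPM and at 923, 882 and 652 CPM.

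Enteric neuron genes had positive log2 fold changes in all 15 cases with a median of 0.57 (0.34 without control 3 and 0.86 without control 1). Of these, 5 were higher without overlap between the groups, against 10.4% of all genes tested. None of the 15 had an unadjusted p under 0.05 in edgeR, while 3 did with the replicate number as a block. Gal, the neuropeptide galanin, was at 25.2, 18.8 and 23.6 CPM in the control group and at 54.9, 54.9 and 49.6 CPM in the model group (log2 fold change 1.24 ± 0.59, unadjusted p = 0.0565). Ret, the receptor that enteric neurons need to develop, was at 13.4, 15.5 and 13.7 CPM and at 23.2, 25.2 and 20.6 CPM (log2 fold change 0.69 ± 0.33). Nos1, the synthase that makes nitric oxide in enteric neurons, overlapped between the groups. Gfap of the enteric glia was at 3.52, 7.16 and 3.13 CPM and at 14.4, 13.9 and 5.72 CPM (log2 fold change 1.31 ± 0.51, unadjusted p = 0.0242). Fat cell genes had a median of 1.70 that rested on model 3 and was -2.86 without it. Cfd, an adipocyte protease, was at 79.0 CPM in model 3 and at most 5.70 CPM elsewhere, and Adipoq at 11.6 CPM and at most 0.878 CPM.

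**Figure D4:**
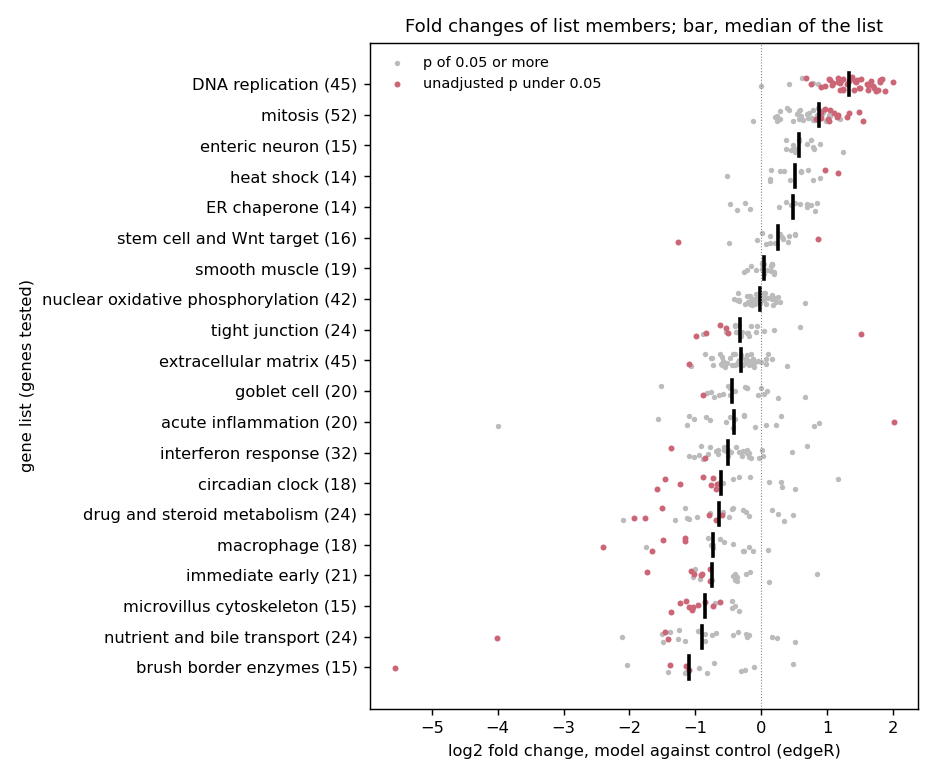
Log2 fold changes, model against control, of the members of 20 gene lists, each dot a gene and each black bar the median of the list. Red dots have an unadjusted p under 0.05 in edgeR. Among these 20 lists, DNA replication lies furthest to the right with a median of 1.34, and brush border enzymes furthest to the left with a median of -1.10. Fat cell genes (median 1.70), plasma cell genes (-1.42) and neutrophil genes (-1.31) are not shown.

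The circadian clock, a loop in which CLOCK and BMAL1 switch on their own repressors and output genes, had 8 of 18 genes lower and 0 higher at an unadjusted p under 0.05, or 1 higher with the replicate number as a block or without control 3. Over all genes tested, 4.51% were lower at that limit. Of the 18 genes, 9 were lower without overlap, against 6.61% of all genes tested, and the median was -0.60. The median was -0.54 within control 1 and 2 and model 1 and 2 and -0.53 between model 3 and control 3, and 7 genes were lower with model 1 and model 2 summed, or 7 to 8 with any library left out. Per1, a repressor of the loop, was at 95.1, 79.6 and 77.5 CPM in the control group and at 47.3, 47.6 and 42.5 CPM in the model group (log2 fold change -0.88 ± 0.22, unadjusted p = 0.00217). Nr1d1, which encodes REV-ERB alpha, was at 131, 76.6 and 61.1 CPM and at 27.4, 28.0 and 42.1 CPM (log2 fold change -1.46 ± 0.45). Cry2, another repressor, and Tef, an output factor, had log2 fold changes of -0.76 and -0.73. Ciart, a repressor of CLOCK and BMAL1 named after its values were seen, was at 20.4, 14.1 and 10.9 CPM and at 3.48, 3.46 and 8.28 CPM (log2 fold change -1.58 ± 0.54, unadjusted p = 0.0133). The activators Arntl, which encodes BMAL1, and Clock, also named after the fact, overlapped between the groups with log2 fold changes of 0.52 ± 0.45 and 0.31 ± 0.26. Nfil3, a repressor of clock outputs named likewise, had the highest log2 fold change of the list with an unadjusted p of 0.093. The labels give no hour of sampling, so the time of day and the treatment cannot be told apart in these genes.

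The start region of Ciart is shown because it holds CACGTG, the letters to which CLOCK and BMAL1 bind, in capitals 3 times. It lies at chr3:95882229-95882478 on the minus strand of RefSeq GRCm38.p6.
Ciart: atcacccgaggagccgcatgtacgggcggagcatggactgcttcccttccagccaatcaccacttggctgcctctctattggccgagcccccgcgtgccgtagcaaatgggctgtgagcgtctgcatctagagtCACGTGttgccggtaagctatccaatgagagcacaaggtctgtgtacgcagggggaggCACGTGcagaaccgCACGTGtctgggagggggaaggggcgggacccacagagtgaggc
The matches lay 116 to 111, 58 to 53 and 44 to 39 bases before the start. CACGTG, which reads the same on both strands, was found in 5 of the 15 clock genes with a RefSeq promoter (33.3%) in 4 of 18 immediate early genes (22.2%) and in 9.37% of genes tested, a motif added after the values were seen.

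Immediate early genes, which cells switch on within minutes of a stimulus, had negative log2 fold changes in 19 of 21 cases with a median of -0.75. Of these genes 11 were lower without overlap, against 6.61% of all genes tested. At an unadjusted p under 0.05, 7 were lower and 0 higher, against 4.51% of all genes tested that were lower. With any library left out 5 to 8 were lower, and with model 1 and model 2 summed 5 were. Jun, a subunit of AP-1, was at 306, 341 and 279 CPM in the control group and at 123, 120 and 202 CPM in the model group (log2 fold change -1.06 ± 0.27, unadjusted p = 0.00217). Klf6, a zinc finger factor, was at 263, 348 and 292 CPM and at 153, 159 and 166 CPM (log2 fold change -0.92 ± 0.23). Zfp36, which encodes tristetraprolin, a protein that hastens the decay of cytokine mRNA, had a log2 fold change of -0.90 ± 0.24. Egr1 was at 38.3, 31.1 and 157 CPM and at 19.7, 20.6 and 27.3 CPM (log2 fold change -1.74 ± 0.61, or -0.65 without control 3). All model libraries were below all controls in these genes. The median was -0.64 within control 1 and 2 and model 1 and 2 and -0.54 between model 3 and control 3.

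**Figure D5:**
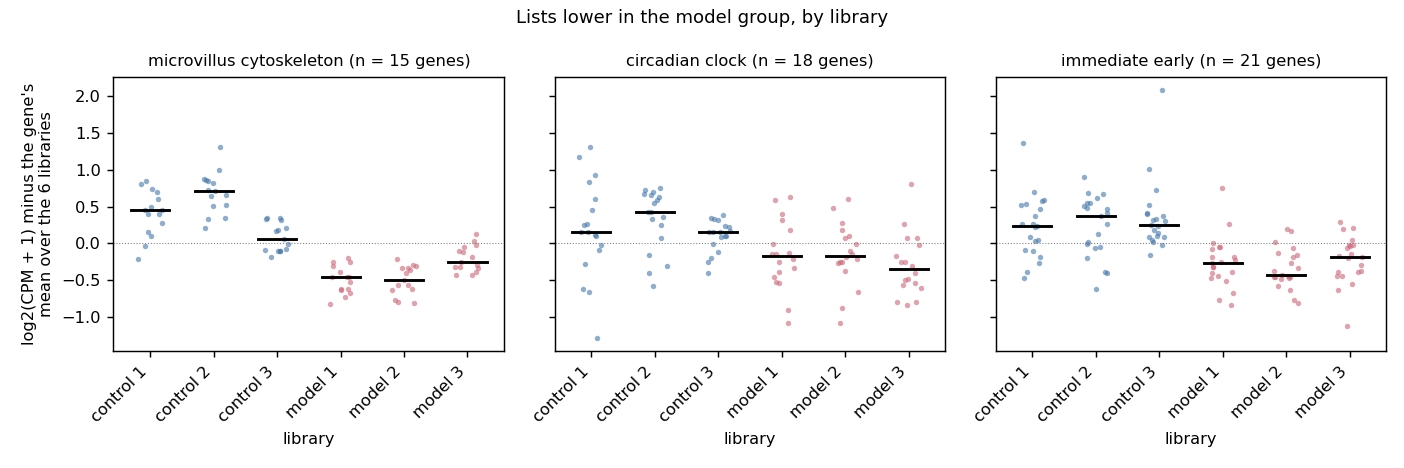
Members of the microvillus cytoskeleton (15 genes), circadian clock (18 genes) and immediate early (21 genes) lists by library, as log2(CPM + 1) minus the mean of the gene over the 6 libraries, with a bar at the median of each library. In each list the medians of the 3 model libraries lie below 0 and those of the 3 control libraries above 0.

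Few chaperone genes of the cytosol and mitochondria reached the limit. In the heat shock list 2 of 14 genes were higher at an unadjusted p under 0.05, or 4 with the replicate number as a block or without control 3, and 1 with any other library left out or with model 1 and model 2 summed. The log2 fold change was positive in 13 with a median of 0.52 (0.20 without model 3). Without overlap 7 were higher. Over all genes tested, 5.11% were higher at that p and 10.4% were higher without overlap. Hspe1, the mitochondrial co-chaperonin, was at 55.0, 70.7 and 99.2 CPM in the control group and at 132, 138 and 171 CPM in the model group (log2 fold change 0.97 ± 0.26, unadjusted p = 0.00296). Hsph1 was at 14.5, 18.1 and 37.5 CPM and at 43.8, 44.8 and 69.3 CPM (log2 fold change 1.17 ± 0.52). Hspd1, the partner of Hspe1, and Dnaja1 were also higher in every model library, with unadjusted p-values of 0.0738 and 0.0757. The chaperones of the endoplasmic reticulum had a median of 0.48, with 10 of 14 positive and 0 under the limit in edgeR, or 2 higher with the replicate number as a block and 3 higher without control 3. Creld2, Manf and Sdf2l1 of that list were higher in every model library, and Hyou1 overlapped.

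Genes of oxidative and xenobiotic metabolism differed in part. Of 16 targets of NRF2, the regulator of the antioxidant response, 2 were higher at an unadjusted p under 0.05, against 5.11% of all genes tested. The count was 1 with model 1 and model 2 summed or without control 2, model 1 or model 2. The median was 0.09, or 0.35 without control 2 and -0.14 without model 3. Gpx2, the glutathione peroxidase of intestinal epithelium, was at 49.6, 96.9 and 138 CPM in the control group and at 328, 319 and 147 CPM in the model group, with model 3 just above control 3 (log2 fold change 1.48 ± 0.62, unadjusted p = 0.0343). Gsta4, a glutathione transferase, was at 79.3, 81.6 and 83.2 CPM and at 115, 109 and 155 CPM (log2 fold change 0.63 ± 0.18, or 0.41 without model 3). Prdx1 and Gstm1 had unadjusted p-values of 0.0772 and 0.0845. In the drug and steroid metabolism list, 20 of 24 genes were negative with a median of -0.64. At an unadjusted p under 0.05, 6 were lower, against 4.51% of all genes tested. However, 0 were lower with model 1 and model 2 summed or with either left out, and 1 was without control 2. Cyp4f14, a fatty acid hydroxylase, was at 68.4, 81.9 and 135 CPM and at 14.7, 14.7 and 54.9 CPM (log2 fold change -1.76 ± 0.66, or -2.75 without model 3), Cyp27a1 had a log2 fold change of -0.79, and Hsd17b2 and Cyp3a13 overlapped. Nuclear genes of oxidative phosphorylation (42 genes, median -0.03), genes of fatty acid oxidation (25 genes, median -0.16) and mitochondrially encoded genes (13 genes, median -0.42) held 0 under the limit in edgeR. With a library left out these medians ran from -0.23 to 0.08, from -0.66 to -0.04 and from -0.90 to 0.06, with the last value of each pair without control 1, model 2 and control 1. Of 24 genes of cholesterol synthesis 1, Insig1, which restrains the pathway, was lower (60.7, 73.8 and 30.3 CPM and 27.3, 29.2 and 17.7 CPM, log2 fold change -1.15 ± 0.41), and 1, Pmvk, was higher with overlap, though not with the replicate number as a block or with model 1 and model 2 summed.

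Of the genes on which the study centres, Tjp1, Ocln, Lpar1 and Fgfr2 were lower at an unadjusted p under 0.05, and the receptors Nr4a1 and Ahr were not. Of these 4, only Tjp1 and Fgfr2 were under that limit with model 1 and model 2 summed or without model 1 or model 2, and only Lpar1 was without control 2. Nr4a1, an orphan nuclear receptor, was at 25.2, 18.6 and 39.9 CPM in the control group and at 15.3, 12.5 and 13.9 CPM in the model group. The groups did not overlap, but its spread was wide (log2 fold change -1.01 ± 0.79, unadjusted p = 0.227). Ahr, the aryl hydrocarbon receptor, was level at 14.6, 18.4 and 18.3 CPM and at 14.8, 17.4 and 16.0 CPM (log2 fold change -0.09 ± 0.22). Its target Cyp1a1 was at 0.0749, 254 and 10.4 CPM and at 6.18, 6.13 and 16.6 CPM, so control 2 alone stood above the model libraries (log2 fold change -3.20 ± 1.46, unadjusted p = 0.0501), and 0 of 8 genes of that pathway were under the limit in edgeR. Fgfr2, a fibroblast growth factor receptor, overlapped through control 1, at 30.2, 98.5 and 63.5 CPM and at 27.5, 31.1 and 33.0 CPM (log2 fold change -1.07 ± 0.35, unadjusted p = 0.0107, or -0.62 without control 2). Lpar1, a receptor for lysophosphatidic acid, was at 55.1, 48.5 and 51.8 CPM and at 38.8, 37.9 and 39.3 CPM (log2 fold change -0.42 ± 0.18, unadjusted p = 0.0345). Epha2, an ephrin receptor, was lower in every model library, narrowly so in model 3 (unadjusted p = 0.105). Ccnd2, which encodes cyclin D2, was at 32.0, 58.3 and 88.5 CPM and at 104, 102 and 108 CPM (log2 fold change 0.81 ± 0.52, unadjusted p = 0.144, or 0.011 with the replicate number as a block).

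Hedgehog genes, through which epithelium signals to the stroma, had 14 of 19 negative with a median of -0.19. At an unadjusted p under 0.05, 1 was lower, a share near the 4.51% of all genes tested. The count was 4 without control 2, 3 without model 3, 2 with the replicate number as a block, and 0 without control 1 or model 2, and the median was -0.52 without model 3. Gli1, the transcription factor that reads out the pathway, was at 9.51, 4.52 and 4.12 CPM in the control group and at 2.10, 2.00 and 1.61 CPM in the model group (log2 fold change -1.66 ± 0.65, unadjusted p = 0.0249). Hhip, its feedback inhibitor, was at 7.26, 5.84 and 10.2 CPM and at 2.21, 0.910 and 5.12 CPM (log2 fold change -1.50 ± 0.78, unadjusted p = 0.0791), and the receptor Ptch1 and the target Bmp4 overlapped. Of 24 p53 targets, 1 was higher and 2 were lower at an unadjusted p under 0.05 with 12 positive and 12 negative. Over all genes tested, 5.11% were higher and 4.51% lower at that p. The higher count was 3 with the replicate number as a block, 2 without control 3 or model 3, and 0 with model 1 and model 2 summed or without control 2, model 1 or model 2. The lower count was 5 without control 3 and 4 without control 1 or model 3. Fas, a death receptor, was at 27.9, 26.9 and 16.4 CPM and at 13.5, 13.4 and 13.1 CPM (log2 fold change -0.83 ± 0.25), Trp53inp1, a stress-induced regulator of autophagy, had a log2 fold change of -0.85 ± 0.27, and Pidd1, a death domain protein, one of 0.82 ± 0.33. Among hormone-secreting and tuft cell markers, 0 of 11 and 0 of 9 were under the limit in edgeR. Sst, which encodes somatostatin, was at 23.96, 47.4 and 52.5 CPM and at 88.2, 84.6 and 124 CPM without overlap (unadjusted p = 0.204), and Dclk1 of tuft cells was at 13.6, 11.3 and 13.2 CPM and at 21.6, 20.2 and 14.7 CPM (unadjusted p = 0.0604).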

How the data were processed

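RNA-Seq of colonic tissue gave 12 libraries, of which the 3 of the control group and the 3 of the model group were compared. The submitters' processing notes name HISAT2 2.0.5, featureCounts 1.5.0-p3, DESeq2 1.16.1 and the build mm10, and do not say whether strand was used, so overlapping genes are uncertain. The counts deposited by the authors are whole reads per gene without normalization, and the deposited FPKM values express the same counts per kilobase of gene and per scaled library. The tables held 54532 genes, of which 24548 had no count, and 0 columns belonged to other samples.

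Counts were tested with edgeR 4.0.16 in R 4.3.3 (filterByExpr with a minimum count of 10, TMM scaling, glmQLFit and glmQLFTest with all 12 libraries in 1 fit, two-sided, Benjamini-Hochberg adjustment at 0.05). CPM values are on the TMM scale without a prior count, and log2 CPM in the comparisons within libraries has a prior count of 2. The statistics were tested on simulated counts first, where DESeq2 made more false calls than edgeR and recovered more of the changed genes. Alternatives were RLE and upper-quartile scaling, genes with any count, only the 6 libraries, protein-coding genes, model 1 and model 2 summed, a replicate block, DESeq2 1.42.0, limma 3.58.1 on log2(FPKM + 1) and log2(FPKM + 0.1), Hoxb13 as a covariate, and each library left out. The comparisons within control 3 and model 3 and within the other 4 libraries were chosen after seeing the data. The replicate numbers come from the sample titles. Deviations of same-numbered control and model libraries correlated with r = 0.21, 0.104 and 0.363, so the blocked fit is given where it changes a count by over 1.5 times. Control 1 and model 2, of different numbers, had r = 0.207.

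Gene lists were written from general knowledge, with earlier results of these data known, and are described without a test. Named genes are those the study centres on, the 12 with the smallest p in each direction among protein-coding genes without overlap, up to 4 per list, protein-coding genes called by DESeq2 with model 1 and model 2 summed, and cell type markers. Others are said to have been named after their values were seen. Promoters came from RefSeq on GRCm38.p6, and the coordinates of genes from the count table. Some results are not reported here.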

Additional observations from a re-analysis of the deposited data

How the results depend on the processing

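The number of genes at an unadjusted p under 0.05 was 1626 and lay between 1528 and 2014 under the other scalings, filters and tests except those named here. It was 866 with model 1 and model 2 summed, in edgeR and in DESeq2 alike, and 888 to 2811 with a library left out, with 888 without model 1, 901 without model 2 and 2811 without control 3. Genes higher in the model group made up 53.1% of these genes, 40.5% under RLE scaling, 39.5% in DESeq2 on the 6 libraries and 60.5% with the replicate block, which gave 1820 genes. The number at an adjusted p under 0.05 was 0, and it was 1 with any count or with only the 6 libraries (Rps26-ps1), 46 in DESeq2 on all libraries, 167 on the 6 libraries, 4 on these with model 1 and model 2 summed, and 0 to 1 with a library left out (Ggta1 without model 3). In DESeq2 on all libraries Reg3b and Reg3g received no p-value. Of 103 genes named with a fold change or p at an unadjusted p under 0.05, 25 were above it with model 1 and model 2 summed, 9 with the replicate block and 4 with the Hoxb13 covariate. With a library left out, the log2 fold change ran from -0.59 to 0.13 (without control 2) for Cldn4, from -3.89 to 0.85 (without control 2) for Cyp1a1, and from -0.85 to 0.66 (without control 1) for Tnf. Of 945 alternatives over 45 list medians, 50 moved by more than the spread between replicates, and the causes were not tested. Depth limits Il6, Mpo and the other genes under 1 CPM, for which a few reads decide a value.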

Other observations

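Lists of genes of cell growth were put together after the values were seen, so their direction is not a finding, and they are described by counts only. Of 36 genes of ribosome biogenesis, 35 had a positive log2 fold change with a median of 0.50, and 12 were higher at an unadjusted p under 0.05 in edgeR, or 21 with the replicate number as a block and 7 with model 1 and model 2 summed. Fbl, the methyltransferase of nucleolar RNA, was at 27.6, 46.2 and 55.1 CPM in the control group and at 70.7, 72.8 and 88.1 CPM in the model group, and Nhp2 and Gar1, proteins of the pseudouridylation complex, were also higher in every model library. Over all genes tested, 50.7% were positive and 5.11% were higher at that limit. Of 23 genes of nucleotide synthesis, 22 were positive with a median of 0.76. At that limit 13 were higher, or 9 with model 1 and model 2 summed. Nme1, a nucleoside diphosphate kinase, was at 20.3, 14.5 and 17.0 CPM and at 38.9, 43.5 and 41.2 CPM. Impdh2, the rate-limiting enzyme of guanine nucleotide synthesis, was at 27.3, 39.9 and 48.2 CPM and at 70.2, 68.5 and 79.7 CPM. In both genes the groups stood clear of each other.

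Of 11 tubulin genes and their regulators, 10 were positive with a median of 0.69. At an unadjusted p under 0.05, 6 were higher, against 5.11% of all genes tested. Tubb5, a beta-tubulin, was at 158, 151 and 180 CPM in the control group and at 317, 319 and 297 CPM in the model group. Of 21 genes of mitochondrial import and protein folding, 20 were positive with a median of 0.56, and 10 were higher at that limit, also with model 1 and model 2 summed. C1qbp, a protein of the mitochondrial matrix, was at 49.6, 70.5 and 75.6 CPM and at 110, 112 and 139 CPM. Of 20 tRNA synthetase genes 18 were positive with a median of 0.40, and 5 were higher at that limit, or 4 with model 1 and model 2 summed. The median differences of these 5 lists between model 3 and control 3 were 0.48 for ribosome biogenesis, 0.38 for nucleotide synthesis, 0.71 for tubulins, 0.50 for mitochondrial import and 0.35 for tRNA synthetases. With a library left out, the counts were 3 (without model 3) to 20 (without control 3) for ribosome biogenesis, 6 (without control 2) to 19 (without control 3) for nucleotide synthesis, 4 (without model 3) to 15 (without control 3) for mitochondrial import, 1 (without model 3) to 9 (without control 3) for tRNA synthetases, and 6 in each case for tubulins. Genes encoded in the nucleus for oxidative phosphorylation had no such shift over the 6 libraries, with a median of -0.03, although 40 of 42 were higher in model 3 than in control 3.

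Ggta1, which makes the alpha-galactose epitope and was named because its call depended on 1 library, was at 14.5, 9.25 and 8.18 CPM in the control group and at 71.3, 75.2 and 10.96 CPM in the model group. Model 3 lay between control 1 and control 2. Without model 3 edgeR's adjusted p was 0.0309, but only the nearly alike model 1 and model 2 then stood for the model group.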
